A study of Homo sapiens with 12 samples.

Results

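CD38, TGM2, PLAAT4, PRAM1 and EXOC3L2 are 5 genes with a strong response to retinoic acid in MOLM-13 cells. They were chosen by name, with their rise under all-trans retinoic acid (ATRA) in these libraries already known, and they are 5 of the 46639 gene symbols of the deposited table. Their change between ATRA and untreated libraries, and between DAC+ATRA and untreated libraries, is therefore given as a description without a test. The question was whether decitabine (DAC) altered their induction by ATRA. MOLM-13 is a human acute myeloid leukemia (AML) cell line with a fusion of the MLL and AF9 genes.

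Total RNA was sequenced in 12 libraries, 3 for each of 4 groups: untreated cells, cells given 100 nM DAC, cells given 1 µM ATRA, and cells given both drugs (DAC+ATRA). According to the labels, culture in all groups was in RPMI with 20% fetal calf serum, antibiotics and GM-CSF at 5 ng/ml. The methods of the study give a lower share of serum and do not name GM-CSF. DAC was renewed each day with the medium. The labels give 72 h for the treated groups and 96 h for the untreated group, while the accompanying design names 72 h for all. If the labels hold, time and drug cannot be told apart in any comparison with untreated libraries, nor in the interaction, which contains them. According to the methods of the study, ATRA was added only on the third day, with the last DAC dose. ATRA was dissolved in DMSO, and no library of cells with solvent alone was analysed here, so the effect of ATRA and that of its solvent cannot be told apart. The libraries of a group are technical triplicates from 1 cell line, so every p-value measures the spread within 1 experiment.

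Retinoic acid enters the nucleus and binds retinoic acid receptors, which sit on DNA as partners of retinoid X receptors. Their binding sites are pairs of a short hexamer, most often in direct repeat with a fixed spacer, and binding of the ligand exchanges corepressors for coactivators. In myeloid leukemia cells this pathway is known for driving differentiation. DAC is incorporated into DNA and traps DNA methyltransferases, which leads to loss of DNA methylation. CD38 is a surface enzyme that consumes NAD and makes cyclic ADP-ribose, and it is also a target of therapeutic antibodies. TGM2 is tissue transglutaminase, which crosslinks proteins. PLAAT4, also known as RARRES3 or TIG3, is a phospholipase and acyltransferase first described as a gene responsive to a retinoid. PRAM1 is an adaptor protein of myeloid cells that was found through its suppression by the PML-RARA fusion. EXOC3L2 is related to the exocyst subunit EXOC3.

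On GRCh38, CD38 (ENSG00000004468.13) lies on the plus strand at chr4:15778275-15853232. TGM2 (ENSG00000198959.12) lies on the minus strand at chr20:38127385-38166578, and PLAAT4 (ENSG00000133321.11) on the plus strand at chr11:63536808-63546462. PRAM1 (ENSG00000133246.12) at chr19:8490056-8502640 and EXOC3L2 (ENSG00000283632.4) at chr19:45212370-45245407 share a chromosome and are both on the minus strand. Reads had been counted per transcript. The table held 3 rows for PLAAT4, of 5 transcripts annotated in GENCODE release 44, and 1 row for each other member. The annotation lists 5 transcripts for CD38, 6 for TGM2, 4 for PRAM1 and 1 for EXOC3L2. All 7 rows are protein-coding transcripts. Reads shared by several listed transcripts appear to have been left out, so the levels are lower limits and are not compared between genes.

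Promoters were searched for the receptor hexamer because the members were picked for a retinoid response. The hexamer AGGTCA was searched on either strand, together with the variant AGTTCA, the variant GGGTCA and the variant GGTTCA. The RefSeq promoter table (GRCh38.p14) held 2 of the members, CD38 and EXOC3L2, and not TGM2, PLAAT4 or PRAM1. The 250 bases before each RefSeq start are printed 5′ to 3′ on the strand of the gene, at chr4:15778078-15778327 for CD38 and chr19:45245408-45245657 for EXOC3L2, with the hexamer in capitals. For CD38 the RefSeq start lies downstream of the gene start given above, so the last bases of its stretch lie inside the gene as located there.
CD38 promoter: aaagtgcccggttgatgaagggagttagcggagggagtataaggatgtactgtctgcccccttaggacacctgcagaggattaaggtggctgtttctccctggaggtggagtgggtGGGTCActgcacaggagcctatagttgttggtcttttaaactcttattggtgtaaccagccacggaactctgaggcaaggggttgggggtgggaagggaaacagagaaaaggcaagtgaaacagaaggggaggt
EXOC3L2 promoter: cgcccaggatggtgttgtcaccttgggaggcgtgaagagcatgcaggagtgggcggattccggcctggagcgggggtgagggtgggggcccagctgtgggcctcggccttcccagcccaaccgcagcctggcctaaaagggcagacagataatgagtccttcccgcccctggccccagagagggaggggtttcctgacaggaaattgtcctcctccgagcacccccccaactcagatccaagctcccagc

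The CD38 stretch held 1 hexamer, at position -134 from the start, and the EXOC3L2 stretch held 0. A hexamer occurred in 33.8% of the 35116 promoters of the same length, so its presence is common. No direct repeat of the hexamer with a spacer of 1, 2 or 5 bases was found in either stretch. Such repeats occurred in 0.0968%, 0.0313% and 0.0740% of all promoters, respectively. CG pairs, the sites of DNA methylation, numbered 3 in the CD38 promoter and 9 in that of EXOC3L2, against a median of 11 over all promoters. Fewer CG pairs than in CD38 were counted in 22.9% of promoters, and fewer than in EXOC3L2 in 45.9%.

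A wider search, for the direct repeat with a spacer of 5 bases only, covered 5 kb on both sides of the GENCODE start on hg38. Among members, its sites were listed only for CD38 and EXOC3L2, so no result is given for TGM2, PLAAT4 and PRAM1. At EXOC3L2 the search found 1 direct repeat with a spacer of 5 bases. This repeat lies in intron 1, 2100 bases downstream of the start, at chr19:45243291-45243307 on the plus strand, opposite to the gene. The repeat is shown with 6 bases on each side, both hexamers in capitals.
EXOC3L2 repeat: ctgagcAGGTCAggacaGGGTCAggatta
The same search gave 0 matches around CD38. Of 20046 protein-coding genes, 442 (2.20%) held at least 1 such repeat in this window. Receptor binding was not measured in these samples, and the match is a description of the letters.

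Depth and cell identity were checked first. The untreated libraries held 8.95 to 11.9 M recovered reads and those with ATRA 8.36 to 10.7 M. Libraries with DAC were shallower, at 4.67 to 6.95 M for DAC alone and 5.61 to 7.16 M when ATRA was added. Of 8 markers of AML cells, 6 exceeded 10 normalised counts in all libraries, among them MPO and FLT3, while CSF2RA was listed at 0 in all of them. The summed level of these markers was 17910 to 18270 in untreated libraries, 28302 to 37223 with DAC, 10547 to 12381 with ATRA and 18917 to 20241 with both. This sum was mostly MPO and FLT3, which moved in opposite directions with DAC. MPO had means of 1513 untreated, 22033 with DAC, 805 with ATRA and 10424 with both. FLT3 had means of 14027, 8281, 8243 and 7328 in the same order, and the means of PTPRC (CD45) were only 11.9 to 26.5. Of 5 markers of other lineages, CD3E, EPCAM and HBA1 were at or near 0. COL1A1, a collagen of fibroblasts, had means of 8.03 untreated, 21.2 with DAC, 79.0 with ATRA and 48.6 with both. Its rise with ATRA was 3.19 on the log2 scale (limma adjusted p = 7.52e-08) and its interaction was -2.04 (adjusted p = 0.00860). PECAM1, which myeloid cells also carry, changed by -1.51 with ATRA (adjusted p = 1.32e-09). The sum of these 5 markers, mostly PECAM1, was 3591 to 4567 in untreated libraries, 5530 to 6175 with DAC, 1475 to 1597 with ATRA and 1814 to 2189 with both. Both sums moved with the drugs, and their part in the results was not tested. Fewer cells of a type and less RNA per cell cannot be told apart in bulk samples.

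CD38 transcripts were present in all libraries and rose with ATRA in the presence and in the absence of DAC. Normalised counts were 669, 686 and 619 in the untreated libraries, 525, 508 and 566 with DAC, 5994, 6669 and 5977 with ATRA, and 6774, 6821 and 6970 with DAC+ATRA. The libraries with and without ATRA did not overlap. Without DAC, the mean was 658 ± 35.1 (SD, n = 3) in untreated and 6213 ± 395 in ATRA libraries, a ratio of 9.45. With DAC it went from 533 ± 29.7 to 6855 ± 102 (SD, n = 3), a ratio of 12.9. All 3 DAC libraries lay below the untreated ones, and all 3 DAC+ATRA libraries lay above those with ATRA alone. Neither difference was called in limma (adjusted p = 0.0343 and 0.310). The share of all genes without overlap between groups was not computed, so lack of overlap is a description for every member.

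TGM2 went from a low level without ATRA to a high level with it. The untreated libraries held 84.0, 77.9 and 70.9 normalised counts and the DAC libraries 40.7, 50.2 and 45.7. With ATRA the values were 15975, 13182 and 13910, and with DAC+ATRA they were 15475, 15789 and 15285. TGM2 was lower with DAC alone, without overlap, at 58.7% of the untreated mean, whereas ATRA and DAC+ATRA libraries overlapped. The ratio of means was 185 without DAC (77.6 ± 6.56 to 14356 ± 1449, SD, n = 3) and 341 with DAC (45.5 ± 4.74 to 15517 ± 254). In normalised counts, by contrast, the rise was 14278 without and 15471 with DAC. The larger ratio thus came with a lower starting level and an end level that was 108% of that with ATRA alone.

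PLAAT4 was close to undetected without ATRA and stayed low with it. Untreated libraries held 0, 0.81 and 2.51 normalised counts (5 reads in all), and all 3 DAC libraries held 0. ATRA libraries held 26.9, 33.5 and 42.6 (126 reads), and DAC+ATRA libraries 23.8, 15.8 and 21.4 (52 reads). Each library with DAC+ATRA lay below each with ATRA alone. From the reads, the ratio of ATRA to untreated was 28.3 (exact 95% interval 11.8 to 88.8, counting error only). Against 3 reads over the DAC libraries, DAC+ATRA was 15.7-fold higher than DAC. The exact 95% lower limit of this ratio from the reads was 12.3 (counting error only). Of the 3 transcripts, ENST00000255688.8 held 74 and ENST00000439013.6 held 50 of the 126 reads under ATRA.

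PRAM1 was higher with ATRA and also with DAC alone than in untreated cells. Untreated libraries held 143, 173 and 203 normalised counts, and DAC libraries 406, 405 and 330. ATRA libraries held 501, 622 and 716, and DAC+ATRA libraries 525, 619 and 619. The DAC+ATRA libraries lay within the range of the ATRA libraries, and the DAC libraries lay between them and the untreated ones. The mean was 173 ± 29.8 in untreated libraries, 380 ± 43.5 with DAC, 613 ± 108 with ATRA and 588 ± 54.3 with both (SD, n = 3). ATRA thus gave a ratio of 3.54 without and 1.55 with DAC, or 440 and 208 normalised counts.

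EXOC3L2 rose from near 0 to a clearly detected level. A single untreated library held 3 reads (1.88 normalised counts), and the other two and all 3 DAC libraries held 0. With ATRA the values were 312, 513 and 451, and with DAC+ATRA they were 239, 277 and 295. The DAC+ATRA libraries all lay below those with ATRA alone. From the reads, the ratio of ATRA to untreated was 591 (exact 95% interval 202 to 2870, counting error only), with 3 reads in the untreated group. The DAC libraries held 0 reads, and against 3 reads over them DAC+ATRA was 213-fold higher than DAC. The exact 95% lower limit of this ratio from the reads was 173 (counting error only). The mean with DAC+ATRA, 270 ± 28.4 (SD, n = 3), was 63.6% of that with ATRA, 425 ± 103.

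**Figure D1:**
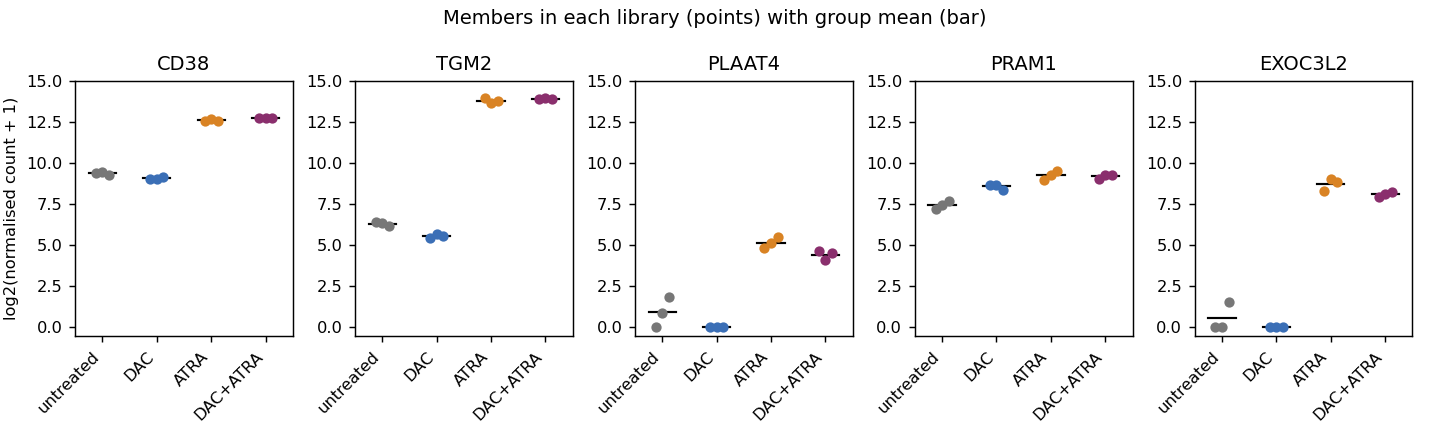
Levels of the 5 members as log2(normalised count + 1) in each library (points), by group, with the mean of the log2 values as a bar. In every panel the ATRA and DAC+ATRA libraries sit above the libraries without ATRA, and PRAM1 is the member whose 3 DAC libraries (330 to 406 normalised counts) sit above the untreated ones.

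The ATRA response of the members without DAC is given as a rank among the 10642 protein-coding genes tested, as a description only. On log2(normalised count + 1), EXOC3L2 had the 2nd largest increase of ATRA over untreated, TGM2 the 6th, PLAAT4 the 82nd, CD38 the 151st and PRAM1 the 388th. Across all genes, 12.1% were called higher and 14% lower in this comparison, at an adjusted p under 0.01 in limma. The increase was 7.51 ± 0.11 (SE) for TGM2, 3.24 ± 0.09 for CD38 and 1.82 ± 0.15 for PRAM1. The increases of EXOC3L2 and PLAAT4 depend on the added 1, with which they were 8.20 and 4.23. With 0.1 added they were 10.6 and 5.77, and with 5 added 6.24 and 2.69. These values chose the members, and nothing is read from them.

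The comparison of DAC+ATRA with DAC asked whether ATRA still induced the members when DAC was present, and it shares no library with ATRA against untreated. Values of the DAC+ATRA libraries were also known when the members were chosen, so its p-values are not independent of the choice. PLAAT4 and EXOC3L2 passed the filter on low values (10 or more normalised counts, in 3 libraries or more) only through libraries with ATRA, so they had to differ, and no p is given for them. The remaining 3 were called higher, as were 9.04% of all genes, while 9.74% were called lower. Their increase on log2(normalised count + 1) was 8.39 for TGM2 (SE 0.11, limma adjusted p = 1.66e-20), 3.68 for CD38 (SE 0.09, adjusted p = 5.37e-16) and 0.63 for PRAM1 (SE 0.15, adjusted p = 0.00434). The PRAM1 call was lost without DAC replicate 3 (0.53, adjusted p = 0.0133), without DAC+ATRA replicate 2 (0.59, adjusted p = 0.0246) and without DAC+ATRA replicate 3 (0.59, adjusted p = 0.0251).

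**Figure D2:**
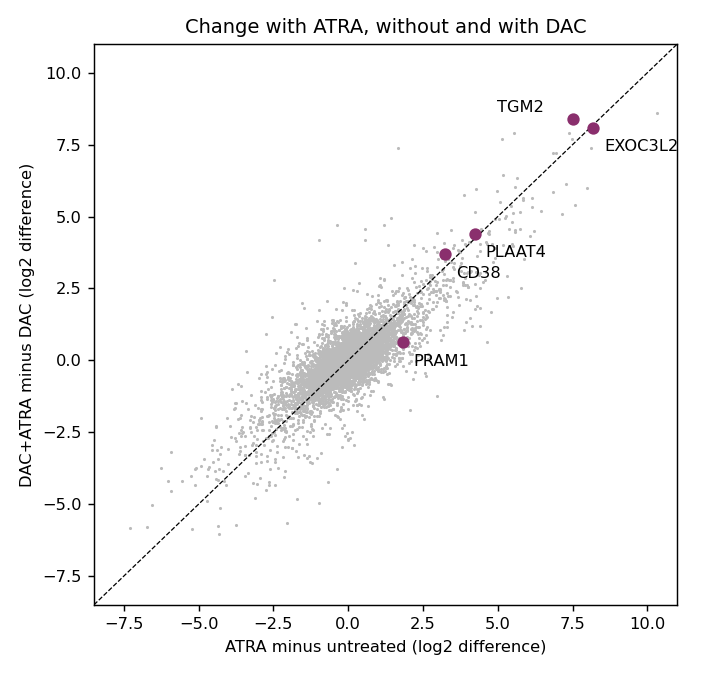
Change with ATRA in the absence of DAC (x axis) and in its presence (y axis), both as differences of log2(normalised count + 1), for the 10642 genes tested (grey) and the 5 members (purple), with a dashed line at equal change. TGM2 (7.51 and 8.39) lies above the line and PRAM1 (1.82 and 0.63) below it, and the places of PLAAT4 and EXOC3L2 depend on the added 1 because their DAC libraries are at 0.

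DAC alone moved the members in different directions. TGM2 fell by 0.76 on the log2 scale (SE 0.11, limma adjusted p = 9.74e-05), while PRAM1 rose by 1.14 (SE 0.15, adjusted p = 4.00e-05). CD38 gave a difference of -0.30 (95% interval -0.50 to -0.11) that did not pass (adjusted p = 0.0343). Of all genes, 4.29% were called higher and 3.67% lower with DAC. No fold is given for PLAAT4 and EXOC3L2, whose DAC libraries held 0 reads. A count of 0 allows up to 3 reads over the group, or a mean of 1.28 normalised counts. The TGM2 call was lost when only untreated and DAC libraries entered the fit (adjusted p = 0.0517).

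The end level under DAC+ATRA was compared with that under ATRA alone. The ATRA libraries also chose the members, so this test is not independent of the choice. None of the 5 members was called in limma, 0 had an unadjusted p under 0.05, and edgeR on the recovered reads called 0. DESeq2 called 1, EXOC3L2, at -0.65 (adjusted p = 0.00858), where the adjusted p was 0.275 in limma and 0.0200 in edgeR with TMM factors. Over all genes, 6.47% were called higher and 5.46% lower. The limma difference was 0.14 for CD38 (95% interval -0.05 to 0.34, adjusted p = 0.310), 0.12 for TGM2 (-0.12 to 0.35, adjusted p = 0.507) and -0.05 for PRAM1 (-0.37 to 0.27, adjusted p = 0.860). It was -0.72 for PLAAT4 (-1.83 to 0.39, adjusted p = 0.372) and -0.63 for EXOC3L2 (-1.43 to 0.18). The intervals of CD38, TGM2 and PRAM1 were thus narrow, whereas those of PLAAT4 and EXOC3L2 also held changes of over 2-fold downward.

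The interaction, the ATRA response with DAC minus that without, was called for TGM2 and PRAM1, in opposite directions. It contains the contrast that chose the members and is read with that limit. TGM2 had an interaction of 0.87 (SE 0.16, limma adjusted p = 0.00263) and PRAM1 of -1.19 (SE 0.22, adjusted p = 0.00308). CD38 did not pass, at 0.45 (95% interval 0.17 to 0.72, adjusted p = 0.0749). Over all genes, 0.724% were called with a positive and 0.874% with a negative interaction. By its construction, the interaction equals the DAC+ATRA to ATRA difference minus the DAC to untreated difference. For TGM2 these were 0.12 and -0.76, and for PRAM1 -0.05 and 1.14, so in both genes the larger term was the change with DAC alone. Each call is near the threshold: leaving out 1 library ended the TGM2 call in 6 of 12 cases (0.82 to 0.89, adjusted p = 0.0107 to 0.0140). For PRAM1 it also ended in 6 of 12 cases (-1.20 to -1.06, adjusted p = 0.0109 to 0.0148). The libraries concerned are untreated replicate 2, ATRA replicates 2 and 3 and DAC+ATRA replicate 1 for both genes, DAC+ATRA replicates 2 and 3 for TGM2, and untreated replicate 1 and DAC replicate 2 for PRAM1.

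**Figure D3:**
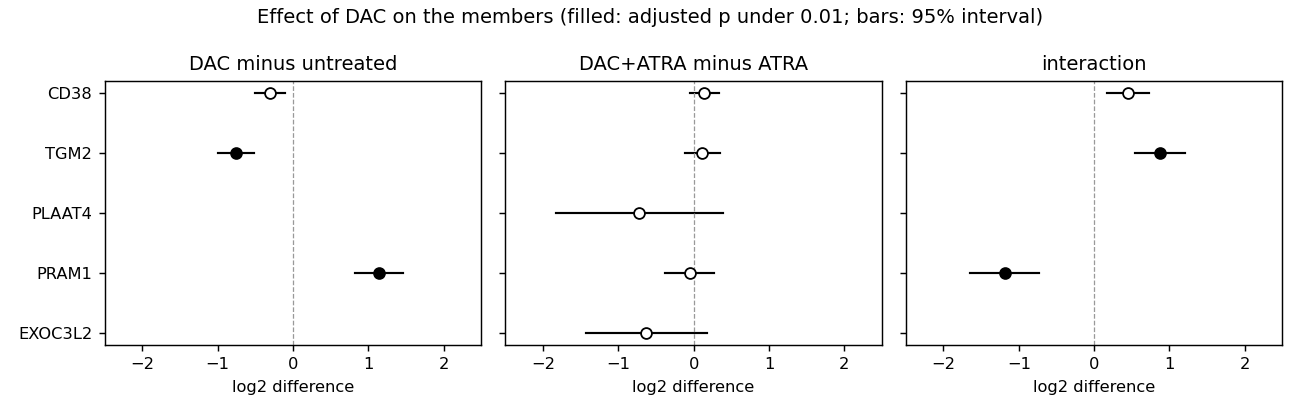
Differences of log2(normalised count + 1) with 95% intervals from limma for DAC minus untreated (left), DAC+ATRA minus ATRA (middle) and the interaction (right), filled where the adjusted p was under 0.01. The middle panel holds no filled point, TGM2 (-0.76, then 0.87) and PRAM1 (1.14, then -1.19) are filled on the left and right, and PLAAT4 and EXOC3L2 are left out of the outer panels because their DAC libraries are at 0.

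A list of 30 known retinoid targets that holds none of the members was examined for comparison, and 19 of these genes were tested. With DAC present, ATRA raised 12 and lowered 3 of the 19, with a median of 1.36 on the log2 scale beside -0.0004 over all genes. Without DAC, 14 rose and 2 fell, with a median of 2.30 beside -0.04. Over all genes, 9.04% were called higher and 9.74% lower with DAC present, and 12.1% and 14% without it. Both medians stayed the same with the 3 genes near 0 without ATRA at their lower bounds. Of the 19, 5 reached the filter only through libraries with ATRA, CYP26A1 and RARB among them, so these counts and medians do not weigh as evidence of the direction. DAC+ATRA was called above ATRA alone in 1 and below it in 5 of the 19, beside 6.47% and 5.46% of all genes. DAC alone raised 3 and lowered 3, beside 4.29% and 3.67% of all genes.

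CYP26A1, which degrades retinoic acid, was at 0 in all libraries without ATRA. It reached 1331 ± 435 with ATRA and 384 ± 7.93 normalised counts with DAC+ATRA (SD, n = 3). Taking 3 reads over the DAC libraries, DAC+ATRA was 299.7-fold above DAC. HIC1, a transcriptional repressor, had means of 17.5 untreated, 7.86 with DAC, 3238 with ATRA and 1774 with both, and rose by 7.70 on the log2 scale with DAC present (adjusted p = 1.09e-15). RARB, a retinoic acid receptor that is its own target, had means of 0, 0.73, 157 and 101 in the same order. Like CYP26A1, it passed the filter only through libraries with ATRA, and no p is given.

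The interaction was called in 3 of the 19 targets, 1 positive and 2 negative, beside 0.724% and 0.874% of all genes. DHRS3, a retinaldehyde reductase, had an interaction of 1.68 (adjusted p = 0.000186), and with DAC alone it fell by 1.89 on the log2 scale (adjusted p = 1.82e-07). Its difference between DAC+ATRA and ATRA was -0.21 (adjusted p = 0.403). ITGAX, the integrin subunit CD11c, had an interaction of -1.19 (adjusted p = 0.000451) and a difference between DAC+ATRA and ATRA of -1.27 (adjusted p = 5.98e-07). TNFSF10, the death ligand TRAIL, had an interaction of -1.33 (adjusted p = 0.00376) with a rise of 0.89 in DAC alone (adjusted p = 0.00185). The terms for DHRS3 were thus of the same signs as those for TGM2 with DAC alone and in the interaction.

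Relatives of the members were described from lists of their families and partners. Over all genes, 9.04% were called higher and 9.74% lower in DAC+ATRA against DAC. The lists are small, and their counts are not read as a result about a family. Of 14 genes for the CD38 paralog and NAD metabolism, 10 were tested, and in DAC+ATRA against DAC 0 rose and 1 fell: NAMPT, the enzyme that starts NAD salvage, at -0.98 (adjusted p = 0.000137). Of 8 transglutaminase genes other than TGM2, 3 were tested. TGM5, which passed the filter only through libraries with ATRA, had means of 5.71 with DAC and 19.7 with DAC+ATRA. F13A1, the A subunit of coagulation factor XIII, changed by -1.48 (adjusted p = 5.80e-09). Of 5 binding partners of TGM2, 2 were tested and 0 were called (ITGB1 adjusted p = 0.874, LRP1 adjusted p = 0.0407). Of 7 PRAM1 relatives and partners, 5 were tested, and SKAP2, an adaptor that binds PRAM1, rose by 0.38 (adjusted p = 0.00917). Of 12 EXOC3 relatives and exocyst subunits, 10 were tested, and TNFAIP2, a relative of EXOC3 that is also among the retinoid targets, rose by 1.11 (adjusted p = 0.000152). In the interaction, F13A1 gave 0.70 and did not pass (adjusted p = 0.0181).

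BST1 and PLAAT3 were singled out after their values were seen, because they are relatives of CD38 and PLAAT4 and lie near them. BST1, also known as CD157, is an NAD-consuming enzyme like CD38 and starts 75210 bases from it on the same strand. Its means were 11.8 in untreated libraries, 42.2 with DAC, 11.1 with ATRA and 38.4 with both, against 658, 533, 6213 and 6855 for CD38. BST1 rose by 1.72 with DAC (adjusted p = 0.000762) and gave -0.10 for DAC+ATRA against DAC (95% interval -0.75 to 0.55, adjusted p = 0.845). PLAAT3, the only other PLAAT gene tested of 4, starts 80075 bases from PLAAT4 on the opposite strand. Its means were 4.33, 26.6, 4.19 and 51.8 in the same order, against 1.11, 0, 34.3 and 20.3 for PLAAT4. PLAAT3 passed the filter only through libraries with DAC, so its higher level there is given without a test. The differences between each member and its relative were not tested.

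**Figure D4:**
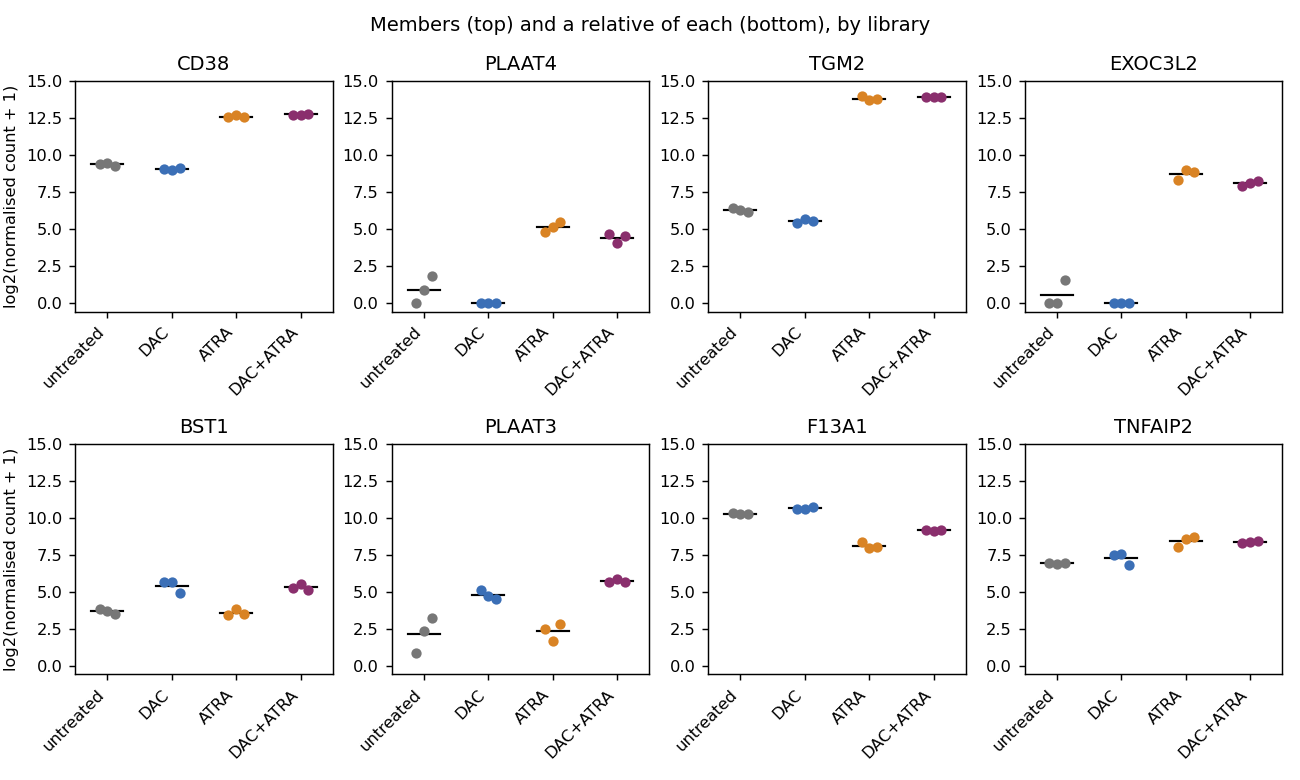
Levels as log2(normalised count + 1) in each library (points, bar at the mean of the log2 values) for 4 members (top) and a relative of each (bottom). BST1 and PLAAT3 are higher in the DAC and DAC+ATRA libraries, F13A1 is lowest in the ATRA libraries, and TNFAIP2 is higher in both groups with ATRA.

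Neighbouring genes were examined because reads from overlapping genes can be mixed when the strand setting of counting is not given. Of 17 protein-coding genes that start within 100 kb of a member, 12 were tested. In DAC+ATRA against DAC, 2 were called, both higher (9.04% of all genes). MYO1F, a myosin near PRAM1, rose by 0.78 (adjusted p = 0.00229). BLOC1S3, a subunit of a complex for lysosome-related organelles, overlaps EXOC3L2 on the opposite strand and rose by 0.97 (adjusted p = 3.32e-05), with means of 157, 135, 309 and 265 in untreated, DAC, ATRA and DAC+ATRA. With DAC against untreated, 4 of the 12 were called higher (4.29% of all genes), among them PLAAT3. With ATRA against untreated 4 were called higher (12.1%), and in DAC+ATRA against ATRA 3 (6.47%), PLAAT3 again among them. PLAAT3 passed the filter only through libraries with DAC, so it had to differ in DAC against untreated and in DAC+ATRA against ATRA. Those counts do not weigh as evidence. MARK4, which also overlaps EXOC3L2 on the opposite strand, had means between 0 and 1.92. RPRD1B overlaps TGM2 on the opposite strand and gave 0.05 for DAC+ATRA against DAC (adjusted p = 0.786), with means of 606, 650, 551 and 674. The part of overlapping reads in the values was not tested.

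The genes whose levels ran most like those of each member were found by Pearson's r of log2(normalised count + 1) over the 12 libraries, with the members themselves left out. These points share 4 groups and their depth, so r mostly reflects the step between libraries with and without ATRA. For CD38 they were PALLD (r = 0.997), ADH1B (r = 0.996) and CYRIA (r = 0.996), and the same 3 genes led for TGM2, at 0.995 to 0.996. PLAAT4 was closest to IRF1, THBD and BLOC1S3, each at r = 0.986, and EXOC3L2 to DUSP4 (r = 0.996), CASS4 (r = 0.995) and THBD (r = 0.994). THBD, the anticoagulant receptor thrombomodulin, went from means of 328 and 216 without ATRA to 12377 with ATRA and 6628 with DAC+ATRA. PRAM1 was closest to ABHD2 (r = 0.979), SMPD3 (r = 0.974) and ANKRD33B (r = 0.967). SMPD3, a sphingomyelinase, had means of 11.3, 66.1, 384 and 299 in untreated, DAC, ATRA and DAC+ATRA, so that, as in PRAM1, DAC alone lay between untreated and ATRA. Among the members, r was highest between CD38 and TGM2 (0.999), above that of the genes just named, and was at least 0.966 between CD38, TGM2, PLAAT4 and EXOC3L2. It was 0.740 to 0.800 between PRAM1 and these 4.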

How the data were processed

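RNA of 12 MOLM-13 libraries was depleted of ribosomal RNA and sequenced from strand-specific libraries. The authors used STAR for alignment to hg38, htseq-count for counting and DESeq2 for their own tests of protein-coding transcripts. The tool versions, annotation release and strand setting are not given in the sources used here. The deposited values are a normalised signal, read counts per transcript divided by 1 size factor per library. All values (100%) were whole multiples of 1 step within 0.01 reads, so reads were recovered (4.67 to 11.9 M per library). The 100502 rows were summed per symbol, and 88.9% matched GENCODE release 44. Columns named CTRL were taken as untreated.

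The main test was limma 3.58.1 (R 4.3.3, eBayes with trend) on log2(normalised count + 1) over all 12 libraries, without covariates. Folds on this scale understate the change of low genes. It covered the 10642 protein-coding genes that reached 10 normalised counts in 3 libraries or more. P-values were adjusted by Benjamini-Hochberg over all of them, with calls at an adjusted p under 0.01. Alternatives were edgeR 4.0.16 and DESeq2 1.42.0 on the recovered reads, other scalings, pseudocounts, filters and thresholds, a replicate block, and omission of each library. Scripts were tested on simulated data.

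The 5 members and all lists were chosen with earlier results of these data known. Named genes were the members, the 3 genes most correlated with each, list genes called in the interaction, up to 3 per list with the largest called change in DAC+ATRA against DAC, and neighbours within 100 kb called there or overlapping a member. A group with at most 3 reads over its libraries was taken as at the floor. A fold against 0 reads is taken against 3 reads over that group, with the other group at its observed reads. One against 1 to 3 reads is a ratio with its exact interval. Intervals and floors cover counting error only. A further marker, fixed in the plan for other lineages, is not reported here and is not in the sums.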

Additional observations from a re-analysis of the deposited data

Results flagged for a closer look

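For TGM2 and PRAM1, the response to ATRA differed between cells with and without DAC by a test of the difference itself. This test contains the contrast of ATRA with untreated that chose both genes. The interaction was 0.87 for TGM2 (limma adjusted p = 0.00263) and -1.19 for PRAM1 (limma adjusted p = 0.00308). Each call was lost in 6 of 12 refits with 1 library left out (adjusted p = 0.0107 to 0.0148). All 3 DAC libraries lay below the untreated ones for TGM2 and above them for PRAM1. For both genes the levels under ATRA and DAC+ATRA overlapped.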

How the results depend on the processing

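Over 25 refits, 379 of 398 member values kept direction and call, those of PLAAT4 and EXOC3L2 in DAC+ATRA against DAC included. PLAAT4 and EXOC3L2 passed the main filter only through libraries with ATRA, so their calls in that comparison do not weigh as evidence. The count of members called in DAC+ATRA against DAC was 4 or 5 throughout, PLAAT4 and EXOC3L2 included. For DAC against untreated it was 2, but 1 when the fit held those groups alone and 1 with a further threshold of 2-fold, and 3 at an adjusted p under 0.05. For DAC+ATRA against ATRA it was 0, but 1 with DESeq2. For the interaction it was 2, but 1 with the 2-fold threshold and 0 to 2 with 1 library left out. PRAM1 in DAC+ATRA against ATRA reversed to 0.070 without ATRA replicate 3 and 0.030 without DAC+ATRA replicate 1, in a range of -0.19 to 0.070 with 1 library left out, and was not called in any of these refits. Among retinoid targets, 3 instead of 6 were called for DAC against untreated with only those groups, and 5 (DESeq2) or 6 (adjusted p under 0.05) instead of 3 in the interaction. Over all genes, DAC against untreated called 848 genes, but 371 with only those groups, and 509 to 1385 with untreated replicate 1 or 2 or DAC replicate 3 left out. DAC+ATRA against ATRA called 1270, but 819 without ATRA replicate 2 and 819 without DAC+ATRA replicate 2. It called 1626 with DESeq2 and 1778 without DAC replicate 3, a library outside this comparison that enters the shared spread. The interaction called 170, but 325 with DESeq2, 106 without untreated replicate 2, 262 without DAC replicate 3 and 112 without DAC+ATRA replicate 2. The causes were not tested.

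No pairing by replicate number was visible in the values left after each gene's group mean was subtracted. These residuals had correlations of -0.263 to 0.114 between same-numbered libraries. Libraries with different numbers were not compared in this way. With a replicate block, 2, 5, 0 and 2 members were called in DAC against untreated, DAC+ATRA against DAC, DAC+ATRA against ATRA and the interaction. The 5 hold PLAAT4 and EXOC3L2, which had to differ because of the filter. With this block, the TGM2 interaction was 0.87 (limma adjusted p = 0.00757). PLAAT4 was not tested with the filter at 50 normalised counts. Depth limits PLAAT4 most, with 126 reads over the ATRA libraries.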
